A study of Mus musculus with 32 samples.

Results

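The genes described here build and move the mitotic spindle: cyclins with Cdk1, mitotic kinases and the chromosomal passenger complex, outer kinetochore proteins, spindle checkpoint and anaphase-promoting complex (APC/C) genes, spindle motors, spindle assembly and cytokinesis factors, and condensin with its companions on the chromosome axis. There were 42 such genes. A gene was measured where the platform annotation gives a probe exactly 1 gene symbol, equal to that of the gene. This held for 41 of the 42, out of 19938 genes that the arrays measure by a probe of a single gene. Ccnb1 was not analysed here. Top2a had 2 such probes, so that the 41 genes had 42 probes, and the brighter probe stands for the gene below.

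RNA was measured in germ cells sorted from fetal mouse gonads at 17.5 days post coitum (dpc), on 32 arrays in 11 groups of 3, except the G1R DEHP females with 2 arrays. The cells were sorted as EGFP-positive cells of the OG2 line, in which the Oct4 promoter drives the GFP transgene, so that the transgene itself defines which cells were collected. G1R cells came from FVBxOG2 fetuses of both sexes whose dams (G0) received oil, bisphenol A (BPA), di-(2-ethylhexyl) phthalate (DEHP) or vinclozolin (VZ) from 12.5 dpc, and 23 arrays held them. Daily doses per kg of body weight were 0.2 mg for BPA, 750 mg for DEHP and 100 mg for VZ. The other 9 arrays held G2R male germ cells from OG2xFVB fetuses, sired by G1 males of the oil, DEHP and VZ lines and not exposed themselves. All groups, controls included, carry the OG2 transgene, and in all lines the G0 dams received tocopherol-stripped corn oil, as the vehicle or alone. BPA is an estrogenic monomer of plastics, DEHP a plasticizer with anti-androgenic action, and VZ a fungicide whose metabolites block the androgen receptor. The sources do not say whether the arrays of a group came from separate litters, so that the p-values measure the spread between these arrays, which may be technical.

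Mitosis begins when Cdk1 binds a B-type or A-type cyclin and Cdc25 phosphatases remove its inhibitory phosphates. Microtubules of the spindle then attach to the kinetochore, a protein assembly on the centromere, while the spindle checkpoint holds back the APC/C until all chromosomes are attached. Motor proteins of the kinesin family slide and shorten microtubules, and condensin folds the chromatids. At this age male germ cells (prospermatogonia) have left the cell cycle and rest in mitotic arrest, whereas female germ cells (fetal oocytes) are in the prophase of meiosis I.

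Promoters of many genes of the late cell cycle hold a cell cycle genes homology region (CHR), read by the DREAM and MuvB complexes, often with CCAAT boxes bound by NF-Y upstream of it. RefSeq promoter windows of the build GRCm38.p6, from 250 bases before to 50 bases after the start, were matched to 34 of the 42 genes. The letters TTTGAA or TTCGAA, searched on both strands as the CHR, lay in the windows of 26 of these 34 genes (76.5%), and in 19.2% of all 32851 windows of the same length. CCAAT, also on both strands, lay in those of 25 genes (73.5%), against 37.4% of all windows. A CHR and a CCAAT box overlapped at 1 place in the windows of these genes. The letters do not show that a factor binds there. Genes with 2 windows count as positive where either window held the letters, and counted in the same way per gene, 21.7% of all genes held a CHR and 41.1% a CCAAT box. Genes that differ in opposite directions between the sexes share these letters. They are shown for 9 genes with a CHR wholly inside the last 60 bases before the start. Each line holds the 100 bases just before the start, 5′ to 3′ on the strand of the gene, with the CHR and CCAAT letters of either strand in capitals. The first 6 genes were higher in female than in male oil germ cells, the next 2 were lower, and the last did not pass the test:
Cdk1, chr10:69352913-69353012, minus strand: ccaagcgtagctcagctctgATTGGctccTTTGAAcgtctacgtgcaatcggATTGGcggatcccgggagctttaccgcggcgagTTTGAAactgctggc
Kif11, chr19:37376282-37376381, plus strand: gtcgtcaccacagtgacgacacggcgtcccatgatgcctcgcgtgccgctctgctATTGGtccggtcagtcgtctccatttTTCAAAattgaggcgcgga
Ncapg, chr5:45669825-45669924, plus strand: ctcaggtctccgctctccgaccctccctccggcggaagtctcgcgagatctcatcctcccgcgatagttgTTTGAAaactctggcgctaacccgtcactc
Prc1, chr7:80294376-80294475, plus strand: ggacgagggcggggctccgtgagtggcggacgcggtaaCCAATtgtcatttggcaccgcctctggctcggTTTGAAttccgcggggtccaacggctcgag
Ska3, chr14:57826164-57826263, minus strand: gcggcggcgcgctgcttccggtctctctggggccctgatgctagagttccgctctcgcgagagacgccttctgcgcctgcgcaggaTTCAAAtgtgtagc
Ube2c, chr2:164769829-164769928, plus strand: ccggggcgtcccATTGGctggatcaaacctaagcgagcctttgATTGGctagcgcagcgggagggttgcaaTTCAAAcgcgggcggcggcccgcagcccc
Cdc20, chr4:118437344-118437443, minus strand: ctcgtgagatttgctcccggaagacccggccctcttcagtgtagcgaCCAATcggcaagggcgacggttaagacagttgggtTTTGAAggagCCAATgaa
Top2a, chr11:99024190-99024289, minus strand: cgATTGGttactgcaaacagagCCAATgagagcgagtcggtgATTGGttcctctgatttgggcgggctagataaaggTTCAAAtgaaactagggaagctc
Bub3, chr7:131560270-131560369, plus strand: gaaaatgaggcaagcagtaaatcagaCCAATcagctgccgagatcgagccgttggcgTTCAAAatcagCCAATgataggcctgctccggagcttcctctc

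Of the genes higher in females, 23 had a window and 18 of these held a CHR (78.3%). Of the genes lower in females, 6 had a window and all 6 held one. The 2 counts are a description of these windows, and the direction of a gene between the sexes was not read from its letters.

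The values are log2 signals, on which a difference of 1 is a factor of 2, and the signal of one probe cannot be set against that of another. Signals below 6.7 lay within the range of olfactory receptor probes (median 5.34 over 1035 probes, 95th percentile 6.89). Germ cell markers were present throughout: 8 of 9 had a group mean above 6.7 in each of the 11 groups, with Ddx4 at 11.59 in female and 11.62 in male oil cells, and only Nanos2 stayed below. Markers of somatic cells were detectable as well, and more of them in males. Between the oil sexes 7 of 8 endothelial, 3 of 8 Sertoli, 2 of 4 fetal Leydig, 3 of 6 blood and macrophage and 5 of 8 peritubular and interstitial markers were lower in females, and 1 of the last list, Nr2f2, was higher. Of the 7 granulosa markers, 4 were lower and 1 higher in females. These counts stand beside 25.6% of all probes lower and 28.7% higher in oil females. The part of the somatic markers in the differences between the sexes was not tested. In these sorted pools, fewer cells of a kind and less RNA per cell cannot be told apart.

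The first comparison asked how female and male germ cells of the oil group differed. Of the 41 genes, 29 were higher in females and 8 were lower at an adjusted p under 0.05 in limma, where 28.7% of all 35556 probes were higher and 25.6% were lower. The median of the 41 log2 differences was 0.94, and that of all probes 0.05. Outer kinetochore genes were all higher in females, while each other class was split, with at least 1 gene lower. The differences as measured ran from -1.15 for Cdc25c to 2.81 for Birc5. Where the lower sex lay under the 95th percentile of olfactory receptor probes, as for Cdc25c in females and Nuf2, Spc24 and Ska1 in males on every array, and Birc5 and Kif4 in males on 1 of 3, the size of a difference is not exact. All female arrays were above all male arrays for 29 of the 41 genes and below them for 8, where 31.4% and 28.4% of all probes were.

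**Figure D1:**
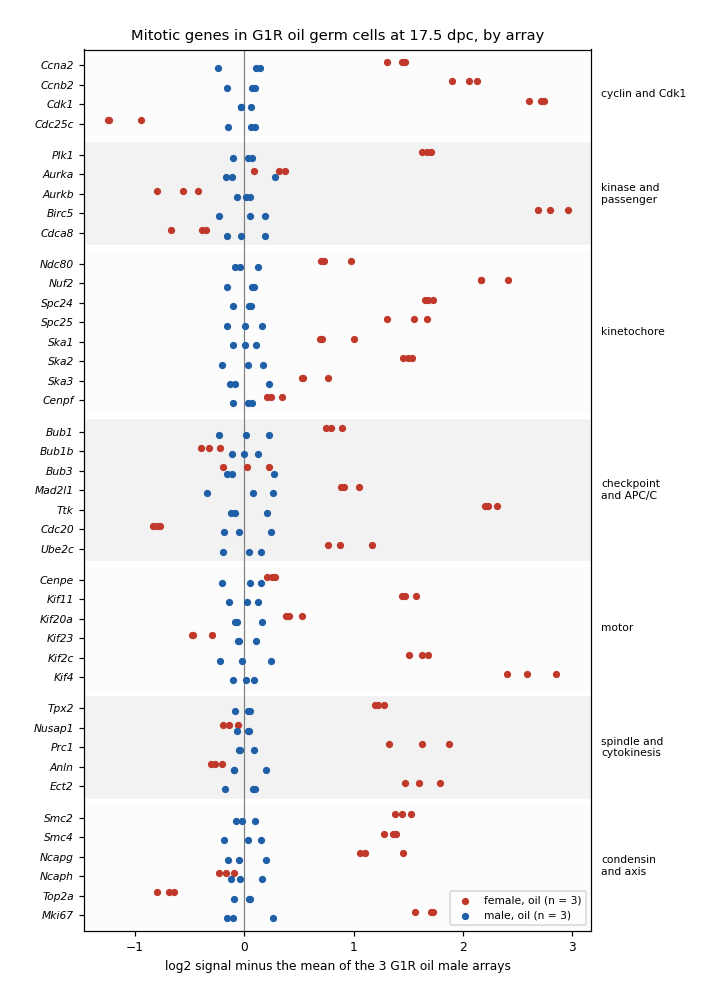
Log2 signal of the 41 genes (rows, by class) on each of the 3 female (red) and 3 male (blue) G1R oil arrays, minus the mean of the 3 male arrays (x axis). Each dot is 1 array. In the kinetochore class all 8 genes lie to the right of the males, while Cdc25c, Aurkb, Cdca8, Bub1b, Cdc20, Kif23, Anln and Top2a lie to the left.

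Among cyclins and Cdk1, 3 of 4 genes were higher in females and 1 was lower. Cdk1, the kinase that drives entry into mitosis, read 10.93, 11.07 and 11.04 on the female oil arrays and 8.30, 8.30 and 8.39 on the male ones. The sexes did not overlap, and females were 6.43-fold higher (log2 2.69 ± 0.18 SE, adjusted p = 1.66e-12). Ccnb2, a B-type cyclin partner of Cdk1, read 12.21, 12.37 and 12.44 in females and 10.15, 10.41 and 10.38 in males. It too was clear of overlap, at 4.08-fold (log2 2.03 ± 0.11, adjusted p = 2.07e-14). Ccna2, the A-type cyclin of S phase and early mitosis, was 2.65-fold higher. Cdc25c, a phosphatase that activates Cdk1, went the other way: 6.37, 6.07 and 6.06 in females against 7.41, 7.37 and 7.16 in males. All female arrays lay below all male arrays (log2 -1.15 ± 0.12, adjusted p = 7.12e-09), and below 6.7, where the signal is that of olfactory receptor probes.

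Mitotic kinases and the chromosomal passenger complex were divided, with 2 genes higher, 2 lower and Aurka at 0.26 (adjusted p = 0.089). Birc5 (survivin), the passenger subunit that brings the complex to the centromere, read 9.82, 9.54 and 9.65 in females. In males it read 6.91, 7.04 and 6.62, close to 6.7. The log2 difference as measured was 2.81 ± 0.14 (7.02-fold, adjusted p = 6.85e-15). Plk1, the polo kinase of centrosome maturation and cytokinesis, stood at 9.78, 9.73 and 9.81 against 8.0, 8.18 and 8.14. Here the sexes were also apart (3.18-fold, log2 1.67 ± 0.12, adjusted p = 2.82e-12). Within the same passenger complex, the kinase subunit and borealin were lower in females. Aurkb (Aurora B) read 7.67, 7.30 and 7.53 in females and 8.15, 8.03 and 8.11 in males, a log2 difference of -0.60 ± 0.15 (adjusted p = 0.00151). Cdca8 (borealin) read 9.21, 8.93 and 9.25 against 9.44, 9.79 and 9.57, a difference of -0.47 ± 0.12 (adjusted p = 0.00211). Neither gene overlapped between the sexes in the oil group.

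The 8 kinetochore genes were all higher in females, with log2 differences from 0.27 to 2.24 and a median of 1.15. They include the 4 subunits of the Ndc80 complex, which grips microtubule ends, and the 3 of the Ska complex, which keeps hold of shrinking ends. Nuf2, of the Ndc80 complex, read 9.19, 8.94 and 8.94 in females and 6.62, 6.85 and 6.87 in males. It was 4.74-fold higher in females, with no overlap (log2 2.24 ± 0.10, adjusted p = 6.02e-16). Spc24, of the same complex, read 8.34, 8.38 and 8.31 against 6.7, 6.72 and 6.55. Males were at the level of olfactory receptor probes here, and the log2 difference was 1.68 ± 0.12 (adjusted p = 2.17e-12). The other subunits, Spc25 and Ndc80, were higher by 1.51 and 0.80, so that the log2 differences of the 4 subunits spread over 0.80 to 2.24. Among Ska genes, Ska2 was higher by 1.49, Ska1 by 0.81 and Ska3 by 0.61. Cenpf, a large protein of the outer corona, had the lowest difference of the class, 0.27 ± 0.08 (adjusted p = 0.00702), which fell to 0.06 and did not pass after cyclic loess normalization.

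In the spindle checkpoint and APC/C class 4 of 7 genes were higher in females, 2 lower and Bub3 at 0.02 (adjusted p = 0.927). Ttk (Mps1), the kinase that starts checkpoint signaling, read 10.11, 10.03 and 10.00 in females and 7.72, 8.01 and 7.68 in males. Females were 4.73-fold higher without overlap (log2 2.24 ± 0.13, adjusted p = 1.09e-13). Mad2l1, Ube2c and Bub1 were higher by 0.94, 0.93 and 0.81. Cdc20, the APC/C activator that the checkpoint holds, read 8.86, 8.89 and 8.82 in females and 9.47, 9.90 and 9.61 in males. It was lower in females on every array (log2 -0.81 ± 0.11, adjusted p = 3.57e-07). Bub1b (BubR1), which binds Cdc20 in the checkpoint complex, read 8.80, 8.63 and 8.70 against 9.02, 9.15 and 8.91, a log2 difference of -0.32 ± 0.10 (adjusted p = 0.00883). Without the male oil array of replicate 2 the difference for Bub1b was -0.26 and did not pass.

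Of the 6 motors, 5 were higher in females. Kif4, the chromokinesin of chromosome arms and the midzone, read 9.76, 9.32 and 9.50 in females and 6.81, 7.0 and 6.93 in males. It was 6.12-fold higher, with no overlap (log2 2.61 ± 0.13, adjusted p = 6.76e-15). Kif11 (Eg5), which pushes spindle poles apart, read 10.34, 10.37 and 10.47 against 8.76, 8.92 and 9.02, and was 2.81-fold higher (adjusted p = 8.95e-12). Kif2c (MCAK), which depolymerizes microtubules at the centromere, was 3.04-fold higher in females. Kif20a was higher by 0.44 and Cenpe, the kinetochore kinesin, by 0.25 ± 0.09 (adjusted p = 0.0261). The latter was 0.02 after cyclic loess normalization and did not pass there. Nor did it pass without the male oil array of replicate 1 (0.14) or the female ones of replicate 1 or 2 (0.23 and 0.24). Counting all alternatives, 5 fits lost the call of Cenpe. Kif23 (MKLP1), the kinesin of the cytokinetic midzone, read 9.25, 9.43 and 9.26 in females and 9.67, 9.83 and 9.68 in males. It was the single motor lower in females (log2 -0.42 ± 0.08, adjusted p = 0.00012).

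Spindle assembly and cytokinesis genes gave 3 higher, 1 lower and 1 that did not pass. Ect2, which activates RhoA at the division plane, read 11.57, 11.25 and 11.38 in females and 9.60, 9.86 and 9.88 in males, 3.08-fold higher without overlap (log2 1.62 ± 0.10, adjusted p = 2.53e-13). Tpx2, the activator of Aurora A on the spindle, read 9.46, 9.38 and 9.41 against 8.22, 8.24 and 8.10 (log2 1.23 ± 0.12, adjusted p = 8.96e-10). Prc1, which bundles midzone microtubules, was 3.04-fold higher. So the midzone bundler and the RhoA activator were higher in females, and the midzone kinesin Kif23 was lower. Anln (anillin), the scaffold of the contractile ring, read 9.97, 10.07 and 10.01 in females and 10.18, 10.47 and 10.18 in males. The difference of -0.26 ± 0.10 (adjusted p = 0.0297 in limma) moved to -0.16 without the male oil array of replicate 2 and did not pass there. Nor did it pass without the female ones of replicate 1 or 3 (-0.24 and -0.26). Counting all alternatives, 4 fits lost the call of Anln. Nusap1, a microtubule-bundling protein, read 9.25, 9.31 and 9.39 against 9.38, 9.49 and 9.48, and did not pass (log2 -0.13, adjusted p = 0.247).

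Of the 6 condensin and chromosome axis genes, 4 were higher in females. Smc2 and Smc4 are the ATPase pair of both condensins. Smc4 read 11.65, 11.62 and 11.54 in females and 10.08, 10.30 and 10.41 in males, and Smc2 10.36, 10.22 and 10.28 against 8.76, 8.94 and 8.82. The pair did not overlap between the sexes, at 2.53-fold and 2.73-fold (adjusted p = 9.1e-13 and 9.67e-12). Ncapg, a subunit of condensin I, was higher by 1.20 and Mki67 (Ki-67), which coats mitotic chromosomes, by 1.66. Ncaph, the kleisin of condensin I, read 9.55, 9.69 and 9.62 in females and 9.66, 9.95 and 9.75 in males, and did not pass (log2 -0.16, adjusted p = 0.132). Top2a, the topoisomerase that untangles chromatids, read 8.84, 8.88 and 8.73 in females and 9.43, 9.57 and 9.58 in males. Its main probe was lower in females on every array (log2 -0.71 ± 0.10, adjusted p = 6.81e-07). The second probe of Top2a, at 5.61, 5.66 and 5.54 in females and 4.62, 4.90 and 4.82 in males, went the other way by 0.82 ± 0.16 (adjusted p = 9e-05). All of these readings lie below 6.7, and the direction of Top2a rests on the brighter probe.

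The same comparison was made on other arrays for each treatment. With BPA 29 genes were higher in females and 7 lower (background 30.6% and 25.1% of all probes), with DEHP 29 and 5 (28.5% and 23.6%), and with VZ 27 and 10 (31% and 24.5%). The female and male arrays of the 4 treatments are distinct, although the fit pools their spread. In all 4 treatments 27 genes passed as higher in females, and 4 genes, Cdc25c, Cdc20, Kif23 and Top2a (main probe), passed as lower. The share of all probes that passed in all 4 was not counted. The second probe of Top2a, below 6.7 on every array, passed as higher in females with oil, BPA, DEHP and VZ (0.82, 1.21, 0.43 and 0.90). Aurkb, Cdca8, Bub1b, Nusap1, Anln and Ncaph had differences below 0 in each treatment but did not pass in all of them. Aurkb was at -0.04 (adjusted p = 0.854 in limma) with DEHP, and Bub1b at -0.04 with BPA. Ncaph passed as lower with BPA and with VZ, and Nusap1 with VZ. Cenpf and Cenpe, the large proteins of the outer corona, passed as higher with oil, BPA and DEHP, but stood at 0.06 (adjusted p = 0.555) and 0.11 (adjusted p = 0.334) with VZ. The sex by treatment term, which compares the female against male difference under a treatment with that in oil, passed for 0 of 41 genes with each of BPA, DEHP and VZ in limma (0% of all probes). At an unadjusted p under 0.05 there were 4, 4 and 7 genes (9.76%, 9.76% and 17.1% of the 41), against 4.84%, 7.47% and 6.21% of all probes.

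**Figure D2:**
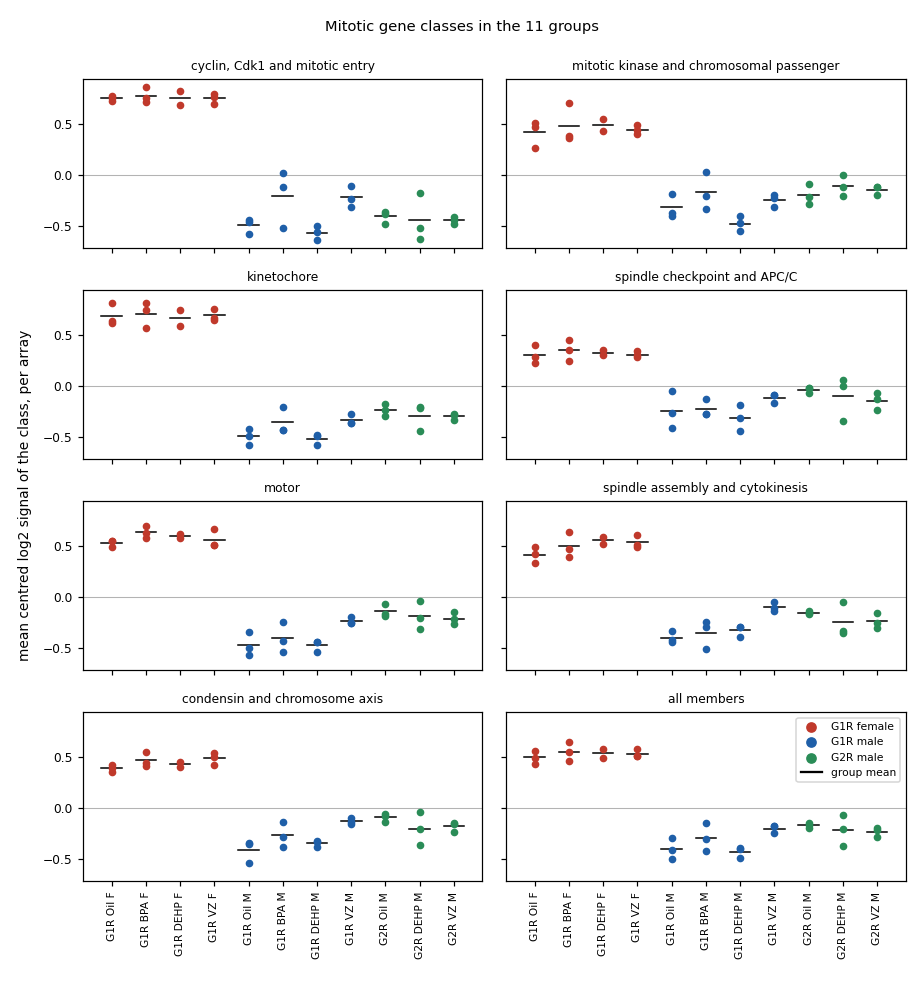
Mean centred log2 signal of each gene class (panels) and of all 41 genes, per array (dots) in the 11 groups (x axis), with each gene centred on its mean over all arrays and black lines for group means. Over all genes the female arrays lie between 0.433 and 0.648, and the male arrays between -0.5 and -0.069.

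Related genes from lists outside the 41 were read in the same fit. Of 30 other kinetochore and centromere genes, 24 were higher in oil females and 4 were lower. Dsn1 (Mis12 complex) was 5.1-fold and Zwilch (RZZ complex) 3.88-fold higher. Of 28 other motors and spindle genes, 21 were higher and 3 lower. The smallest p were those of the augmin subunits Haus2 (4.46-fold) and Haus5 (3.36-fold). These counts stand beside 28.7% of all probes higher and 25.6% lower.

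Of 12 other condensin and cohesin-release genes, 8 were higher in females and 4 were lower, beside 28.7% and 25.6% of all probes. Espl1 (separase), which cuts cohesin at anaphase, was 3.87-fold higher. Ncapd3, the large HEAT-repeat subunit of condensin II, was lower (log2 -1.42 ± 0.07, adjusted p = 4.17e-15). The remaining condensin subunits, named after their values were seen, were Ncapd2 of condensin I at -2.26 ± 0.15 and, of condensin II, Ncaph2 at 1.57 and Ncapg2 at 0.56. Condensin subunits therefore did not move together with oil. The ATPase pair and Ncapg, Ncapg2 and Ncaph2 were higher in females, both D-type subunits were lower, and Ncaph did not pass. With BPA and with VZ, Ncaph passed as lower in females.

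Among 20 regulators of mitotic entry and prophase arrest, 10 were higher in females and 5 lower, the latter near the 25.6% of all probes. Arpp19, an inhibitor of the phosphatase PP2A that opposes Cdk1, was 4.04-fold higher. Cdc25b, which like Cdc25c activates Cdk1, was lower (log2 -2.22 ± 0.09, adjusted p = 2.52e-16). Of 23 genes for the transcription of mitotic genes, including DREAM, E2F and NF-Y subunits, 15 were higher and 3 lower. Of all probes 28.7% were higher and 25.6% lower. E2f5 and E2f4, whose products can recruit the repressive DREAM complex, were 7.62-fold and 3.36-fold higher in females.

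The second comparison set G2R against G1R male germ cells of the oil line. Of the 41 genes, 12 were higher in G2R and 0 were lower in limma, where 5% of all probes were higher and 5.3% lower. At an unadjusted p under 0.05 there were 22 higher and 1 lower, where 26.9% of all probes reached it in either direction. The median log2 difference was 0.26, against -0.03 for all probes, and 35 of 41 differences were above 0, as were 44.6% of all probes. Differences were small, from -0.35 to 0.58. The 2 generations were hybridized at separate times and come from crosses of opposite direction, so that generation, time of hybridization and cross cannot be told apart. Of 41 somatic cell markers, 8 had an unadjusted p under 0.05 in limma (19.5%, against 26.9% of all probes) and 1 passed, the endothelial marker Esam, lower in G2R (log2 -0.30). All 8 Sertoli markers had differences below 0, with a median of -0.26, and their part in the result was not tested.

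Kinetochore genes, motors and condensin and axis genes each had 3 of the 12 genes, while 0 of 4 cyclin and Cdk1 genes passed in limma (1 at an unadjusted p under 0.05). Spc25 of the Ndc80 complex read 8.67, 8.37 and 8.39 on the G2R oil arrays and 7.73, 8.05 and 7.90 on the G1R oil male arrays. It was the highest difference of the 41, 0.58 ± 0.12, with no overlap (adjusted p = 0.00468). Cenpf read 10.42, 10.22 and 10.21 against 9.79, 9.96 and 9.93 (0.39 ± 0.08, adjusted p = 0.00501). Nuf2 was higher by 0.44. Spc24, in the same complex as Spc25 and Nuf2, went against its class at 6.46, 6.14 and 6.32 against 6.7, 6.72 and 6.55, a difference of -0.35 that did not pass (adjusted p = 0.0514), on signals about or below 6.7.

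Of the motors, Cenpe read 10.18, 10.09 and 10.06 in G2R and 9.42, 9.78 and 9.68 in G1R (0.48 ± 0.09, adjusted p = 0.00267). Kif23 read 10.21, 10.09 and 10.13 against 9.67, 9.83 and 9.68 (0.42 ± 0.08, adjusted p = 0.00363). Kif11 was the other motor that passed, at 0.41. In the condensin and axis class Ncapg read 10.07, 9.88 and 9.88 against 9.31, 9.66 and 9.41 (0.48 ± 0.11, adjusted p = 0.00839). Top2a read 10.03, 9.84 and 9.91 against 9.43, 9.57 and 9.58 on the main probe (0.40 ± 0.10, adjusted p = 0.0124). The second Top2a probe was at -0.12 and did not pass, and the mean of both probes gave 0.14, which did not pass either. Smc4 was the third, at 0.29. None of these motors and axis genes overlapped between the generations. Of the 41 genes, 22 were higher on all G2R arrays and 1 lower, where 14.3% and 18.3% of all probes were.

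Bub1, the kinase that marks the centromere for checkpoint and cohesion proteins, read 11.27, 11.24 and 11.19 in G2R oil males and 10.51, 10.97 and 10.76 in G1R oil males (0.49 ± 0.12, adjusted p = 0.0119). Anln read 10.86, 10.71 and 10.69 against 10.18, 10.47 and 10.18 (0.48 ± 0.10, adjusted p = 0.00487), and Cdca8 10.08, 10.21 and 10.02 against 9.44, 9.79 and 9.57 (0.50 ± 0.12, adjusted p = 0.0124). These 3 genes were the ones of their classes that passed, each without overlap. Next in the lists by p were genes that did not pass: Bub1b at 0.28 (adjusted p = 0.0721), Nusap1 at 0.25 (adjusted p = 0.0976), Aurka at 0.28 (adjusted p = 0.158) and Ccna2 at 0.37 (adjusted p = 0.0804). Ccna2 read 9.91, 9.86 and 9.90 against 9.27, 9.62 and 9.66, while Cdk1 and Ccnb2 were at -0.11 and -0.10. The count of 12 rests in part on a single array. Replicate 1 of the G1R oil males had the lowest reading of its group for all 12 genes, tied for 1 of them (Anln), and without it 5 genes passed. Without the G1R oil male array of replicate 2 it was 15. When only the 6 arrays compared were fitted in limma, 0 genes passed (21 higher and 1 lower at an unadjusted p under 0.05). The share of all probes in that fit was not counted.

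The same comparison in the DEHP line, on other arrays, gave 14 genes higher in G2R and 0 lower in limma (6.91% and 7.56% of all probes). At an unadjusted p under 0.05 there were 15 higher and 6 lower, where 28.8% of all probes reached it in either direction. Bub1 read 11.66, 11.53 and 11.17 in G2R and 10.82, 10.40 and 10.72 in G1R DEHP males (0.80 ± 0.12, adjusted p = 9.8e-05). Ndc80, of the kinetochore complex of that name, read 8.51, 8.70 and 7.98 against 7.65, 7.28 and 7.68, the highest difference of this line at 0.86 ± 0.15 (adjusted p = 0.000411). Both genes were free of overlap (13.9% of all probes were higher on all G2R arrays), and so was Anln at 0.74 ± 0.10 (adjusted p = 3.17e-05). The 12 genes of the oil line and the 14 of the DEHP line shared 9 genes, which is 75% of the first and 64.3% of the second: Cdca8, Spc25, Cenpf, Bub1, Cenpe, Kif23, Anln, Ncapg and Top2a. The share of all probes that passed in both lines was not counted, so this overlap cannot be called particular to these genes. Time of hybridization and cross differ between the generations in both lines. Without the G2R DEHP array of replicate 2 there were 10 higher and 2 lower, and without the G1R DEHP male array of replicate 2, 12 higher and 1 lower. Of the somatic markers, 2 of 8 Sertoli, 2 of 7 granulosa and 1 of 8 peritubular and interstitial ones passed as lower in G2R of this line. All 4 Leydig markers had differences above 0 (median 0.58), with a list mean of 9.16 on the G2R DEHP array of replicate 2. The part of these markers was not tested.

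In the VZ line 3 genes were higher in G2R and 5 were lower (2.98% and 4.78% of all probes), and the median of the 41 differences was -0.04. Those higher were Anln (0.41 ± 0.10), Cdca8 (0.43 ± 0.12) and Bub1 (0.39 ± 0.12), the genes that passed as higher in all 3 lines. Those lower were Ube2c (-0.51 ± 0.13), Ccnb2 (-0.40 ± 0.11), Ect2 (-0.37 ± 0.10), Nusap1 (-0.33 ± 0.10) and Smc4 (-0.32 ± 0.09). Smc4 read 10.29, 10.23 and 10.36 in G2R VZ males and 10.74, 10.55 and 10.53 in G1R VZ males. It was lower in G2R here and higher in the oil line, where 5 of the alternative fits lost its call. The counts of this line moved with each array. Leaving out VZ arrays of replicate 1, 2 or 3 in turn gave 1, 1 and 1 higher and 0, 3 and 5 lower when the array was of G1R, and 0, 2 and 1 higher and 2, 2 and 1 lower when it was of G2R. With the 6 arrays of the line alone, 0 genes passed in limma in either direction (7 higher and 8 lower at an unadjusted p under 0.05). The share of all probes in that fit was not counted.

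**Figure D3:**
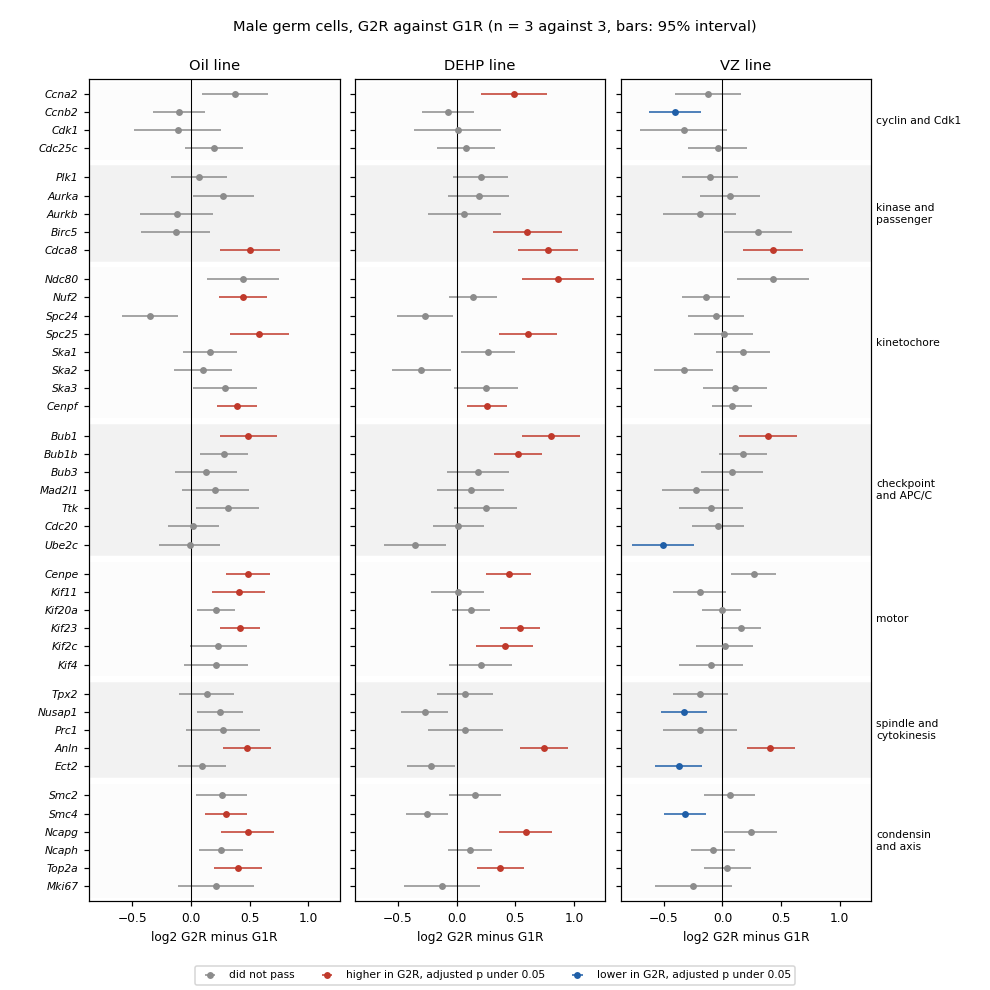
Log2 difference, G2R minus G1R male germ cells (x axis), of the 41 genes (rows, by class) in the oil, DEHP and VZ lines, with 95% intervals of the limma fit. Red marks genes higher in G2R at an adjusted p under 0.05 (12, 14 and 3), blue genes lower (0, 0 and 5).

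In related lists, 9 of 30 other kinetochore and centromere genes were higher in G2R oil males and 1, Cenpb, was lower (log2 -0.41). Knl1, the platform for checkpoint proteins, was higher by 0.54 ± 0.10 and Oip5, of the Mis18 complex that loads Cenpa, by 0.45 ± 0.09. Of 28 other motors and spindle genes 9 were higher and 0 lower, with Kif18a at 0.49 ± 0.09 and Kif2a at 0.37 ± 0.07. In limma none of the 12 other condensin and cohesin-release genes passed (4 at an unadjusted p under 0.05), with Pds5b at 0.24 and Ncapg2 at 0.31. Of 20 entry and arrest regulators 3 were higher and 1 lower, with the phosphatase Cdc14a at 0.54 and Mos, the kinase of meiotic arrest, at -0.49 on signals below 6.7. Of the 23 transcription genes 1 was higher, Lin9 (0.37), and 1 lower, Lin37 (-0.43), near the 5% and 5.3% of all probes. In the DEHP line 8 of the 30 kinetochore and 14 of the 28 motor genes were higher, and 1 and 0 lower. In the VZ line 1 and 2 were higher, and 0 and 1 lower. The kinetochore list mean was 8.01 on the G1R oil male array of replicate 1, against 8.20 and 8.08 on replicates 2 and 3. These lists were not counted with any array left out.

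The third set of comparisons asked whether exposure changed these genes. In limma none of the 41 genes passed in any of the 8 comparisons of a treatment with oil. Of all probes, 0% passed in G1R females with BPA, DEHP or VZ, in G1R males with BPA, and in G2R males with DEHP or VZ, and 0.00562% in G1R males with DEHP and in G1R males with VZ. At an unadjusted p under 0.05 there were 0, 2 and 2 genes in females with BPA, DEHP and VZ, 8, 6 and 19 in G1R males, and 5 and 4 in G2R males with DEHP and VZ. The shares of all probes at this threshold were 4.56%, 6.28% and 5.96% in females, 6.96%, 14.4% and 18.3% in G1R males, and 6.91% and 5.41% in G2R males. The counts in females (4.88% of the 41 with DEHP and with VZ) were not above these shares. Comparisons within a sex and generation share their 3 oil arrays, so their values are not independent of each other. The 3 G1R oil male arrays also enter the oil comparisons of sex and of generation. They enter as well the terms that set a treated difference against that in oil. Low readings on them would raise both G2R over G1R with oil and G1R VZ males over oil. The part of these shared arrays was not tested.

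**Figure D4:**
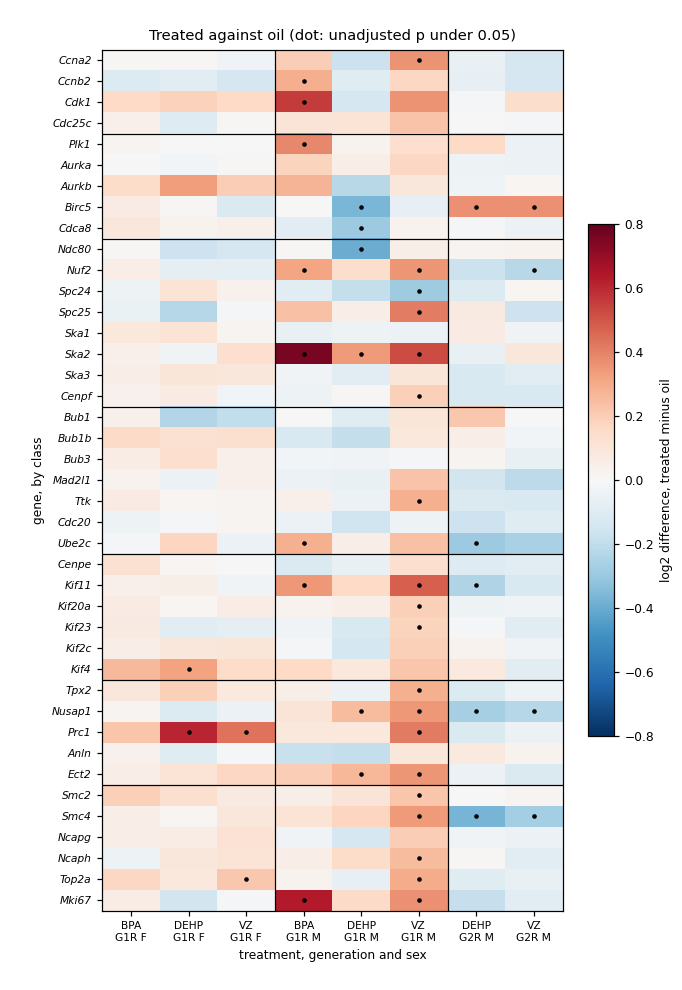
Log2 difference of each treated group from the oil group of its sex and generation (columns) for the 41 genes (rows, by class), red where the treated group was higher and blue where it was lower, with dots at an unadjusted p under 0.05. The G1R VZ male column holds 19 dots, and no difference in the panel passed at an adjusted p under 0.05.

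In G1R males with VZ, 36 of the 41 differences were above 0, as were 47.8% of all probes, and their median was 0.20, against -0.01 for all probes. The 19 genes at an unadjusted p under 0.05 were 46.3% of the 41, where 18.3% of all probes reached it. They were 5 of 6 condensin and axis genes, 4 of 5 spindle assembly genes, 5 of 8 kinetochore genes, 3 of 6 motors, 1 of 4 cyclin and Cdk1 genes, 1 of 7 checkpoint genes and none of 5 kinases and passengers in limma. All were higher with VZ except Spc24 (-0.28). Kif11 read 9.43, 9.39 and 9.33 with VZ and 8.76, 8.92 and 9.02 with oil. Smc4 read 10.74, 10.55 and 10.53 against 10.08, 10.30 and 10.41, and Ska2 7.73, 7.70 and 7.73 against 7.23, 6.99 and 7.37. These 3 genes did not overlap, with differences of 0.48 ± 0.11, 0.34 ± 0.09 and 0.52 ± 0.12, but missed the threshold (adjusted p = 0.0802, 0.0861 and 0.0802). In all, 19 of the 41 genes were higher on every VZ array than on every oil array and 0 were lower, where 12.7% and 14.8% of all probes were. With array quality weights 9 genes passed, and with only probes of a single gene 2. The shares of all probes that passed in these 2 fits were not counted. Sertoli markers had a median difference of 0.10 in these arrays (from -0.23 to 0.93) and Leydig markers of -0.04 (from -0.20 to 0.006). Their list means on the VZ arrays were 7.72 to 8.07 and 6.68 to 7.42, against 7.39 to 7.83 and 6.71 to 7.34 with oil. The part of these markers in the differences was not tested.

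In G1R males with BPA 8 genes had an unadjusted p under 0.05, all higher. Ska2 read 8.12, 8.14 and 7.62 with BPA against 7.23, 6.99 and 7.37 with oil, a difference of 0.76 ± 0.12 (adjusted p = 0.0568). Mki67 read 9.34, 9.10 and 8.47 against 8.23, 8.18 and 8.6, Cdk1 9.37, 9.06 and 8.23 against 8.30, 8.30 and 8.39, and Plk1 8.82, 8.52 and 8.13 against 8.0, 8.18 and 8.14. The first 2 BPA arrays were above all oil arrays for these genes, and the third was within or below the oil range for Mki67, Cdk1 and Plk1. The same 2 arrays stood apart in somatic markers. The mean of 8 Sertoli markers was 8.82, 8.45 and 7.60 on the BPA arrays against 7.67, 7.39 and 7.83 with oil. That of 4 Leydig markers was 8.28, 8.90 and 6.78 against 7.34, 6.71 and 7.26, and that of 8 peritubular and interstitial markers 8.43, 9.18 and 7.62 against 7.79, 7.54 and 7.97. Germ cell markers read 9.87, 9.83 and 9.96 against 9.95, 9.94 and 9.80. The part of the somatic markers in the differences was not tested. Without the BPA male array of replicate 3, 4 genes passed, and without the oil male array of replicate 3, 1 gene. The shares of all probes that passed there were not counted.

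**Figure D5:**
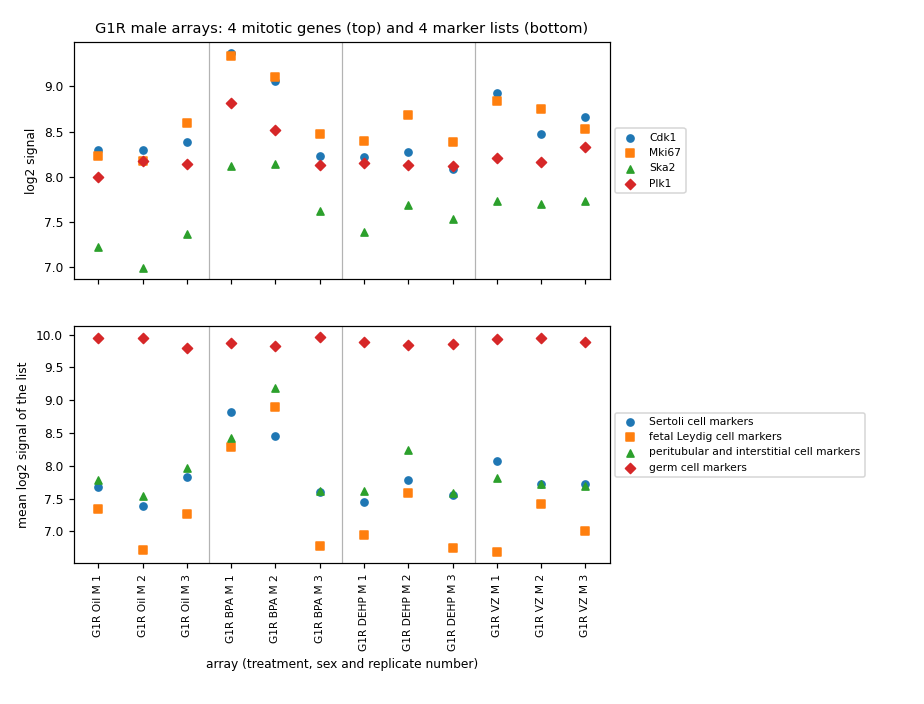
Log2 signal of Cdk1, Mki67, Ska2 and Plk1 (top) and mean log2 signal of 4 marker lists (bottom) on the 12 G1R male arrays (x axis). BPA arrays 1 and 2 are the highest of the 12 in all 4 genes and in the Sertoli, Leydig and peritubular lists, while germ cell markers stay between 9.8 and 9.96.

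In G1R males with DEHP 3 genes were higher and 3 lower at an unadjusted p under 0.05, with a median over the 41 of -0.05 and a lowest adjusted p of 0.197. These 6 genes were 14.6% of the 41, near the 14.4% of all probes. Ndc80 read 7.65, 7.28 and 7.68 against 7.85, 8.06 and 7.90 in oil, the lowest difference at -0.40. In females Prc1 had the smallest p with DEHP and with VZ: 10.24 and 10.25 with DEHP and 10.08, 10.11 and 10.00 with VZ, against 9.90, 9.35 and 9.65 in oil. Treated arrays lay above the oil arrays, as for 11.2% and 5.75% of all probes, but with differences of 0.61 and 0.43 the adjusted p were 0.647 and 0.744. In females with BPA no gene had an unadjusted p under 0.05. There 35 of the 41 differences were above 0, as were 51.4% of all probes. Their median was small, 0.054, against 0.004 for all probes.

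In G2R males, 12 of 41 differences from oil were above 0 in the DEHP line and 9 of 41 in the VZ line, where 52.3% and 48.5% of all probes were. Smc4 was lowest in both, at 10.09, 10.32 and 10.15 with DEHP and 10.29, 10.23 and 10.36 with VZ against 10.56, 10.49 and 10.63 with oil. It lay below oil on all arrays of either line, as did 4.67% and 5.33% of all probes, and neither difference passed (-0.37, adjusted p = 0.369, and -0.27, adjusted p = 0.913). Birc5 was the gene higher in both at an unadjusted p under 0.05, by 0.37 and 0.37, on readings of 7.0 to 7.18 against 6.44, 7.02 and 6.72. Without the G2R DEHP array of replicate 2, 1 gene passed in the DEHP line.

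The generation by treatment term asks whether the difference of a treatment from oil was the same in G2R and G1R males. It passed for 0 of 41 genes with DEHP and with VZ in limma (0% of all probes). At an unadjusted p under 0.05 there were 7 genes with DEHP (17.1% of the 41 against 13.3% of all probes), and with VZ 17 (41.5% of the 41 against 16.2% of all probes), 16 of them below 0. With VZ 38 of the 41 terms were below 0 and the median was -0.24. The term holds the same G1R oil male arrays as the G1R VZ male and oil generation comparisons, and low readings on them would lower it. It is therefore not a result separate from those comparisons. Smc4 had the lowest at -0.61 (adjusted p = 0.0984), followed by Kif11 at -0.60 and Nuf2 at -0.58 (adjusted p = 0.113 and 0.109). Without the G2R VZ array of replicate 1, 1 gene passed, and without the G2R DEHP array of replicate 2, 3 genes passed in the DEHP term.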

How the data were processed

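The arrays were Affymetrix Mouse Gene 1.0 ST arrays of RNA extracted with TRIzol from sorted cells. The authors normalized them by RMA in Partek Genomics Suite (version not given in the sources used here) and deposited log2 signals for 35556 probes, which are used here as deposited. RMA draws the arrays to a common distribution, so that a change in total RNA per cell cannot be seen. Of several probes of a gene, the one with the highest mean stands for it.

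Groups came from the sample titles. Group means of all 32 arrays were fitted together in limma 3.58.1 (R 4.3.3; 21 residual and 3.67 prior degrees of freedom), and p-values were adjusted by Benjamini-Hochberg over all 35556 probes, with a threshold of 0.05. Errors are standard errors of the fit. Between 3 and 3 arrays an exact two-sided permutation test cannot go below 0.1, so that none was used. The fit was tested on simulated data. Figures were drawn in Python 3.11.15 with matplotlib 3.10.9.

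The genes, their classes and the related lists were chosen with earlier results of these data known. Genes were named by a rule: all 41 by class, with values per array for up to 2 of a class with the smallest p in the oil comparisons of sex and generation and for those against most of their class, and up to 2 of each related list. The third motor, remaining condensin subunits and genes of the treatment comparisons were named after their values were seen. Alternatives were an unmoderated contrast, only the arrays compared, only probes above 6.7, only probes of a single gene, a replicate block, weights for array quality, a cyclic loess step, a change of at least 1.5-fold, the mean of the probes of a gene, and leaving out each array. The number of arrays limits the precision.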

Additional observations from a re-analysis of the deposited data

How the results depend on the processing

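The counts for sex kept their size except for the genes lower in females when a 1.5-fold change was required, which left 4 with oil, 3 with BPA, 2 with DEHP and 4 with VZ, and after cyclic loess normalization, which gave 26 higher and 9 lower with DEHP. The main probe of Top2a turned from -0.71 to 0.0538 when both probes were averaged. The counts for generation moved more. Requiring 1.5-fold left 0 higher with oil, 7 with DEHP, and 0 higher and 0 lower with VZ. Fitting only the arrays compared left 0 higher with oil, 3 with DEHP, and 0 higher and 0 lower with VZ in limma, where 21, 14, 7 and 8 genes had an unadjusted p under 0.05. With oil 1 gene was lower with probes above 6.7, with probes of a single gene or with array quality weights. With DEHP 3 were lower with probes above 6.7, with probes of a single gene or after the loess step, and 2 without moderation or with array quality weights. In G1R males 1 gene passed with BPA under array quality weights, probes above 6.7, probes of a single gene or a cyclic loess step, and 2 and 9 with VZ under probes of a single gene and array quality weights. The cause was not tested, and the share of all probes that passed was not counted under any of the alternatives.

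Leaving out each array in turn gave 5 to 15 genes higher in G2R with oil, 0 to 2 lower with DEHP, and 0 to 2 higher and 0 to 5 lower with VZ. In G1R males with BPA it gave 0 to 4, in G2R males with DEHP 0 to 1, in the sex by BPA term 0 to 1, and in the generation terms 0 to 3 with DEHP and 0 to 1 with VZ. Arrays of different groups with the same replicate number shared only a number, since the correlations of their deviations ran from -0.354 to 0.131 and no comparison had all of them over 0.1. With the replicate number as a block 29 genes were higher and 8 lower in oil females, 12 were higher in G2R with oil and 14 with DEHP, and no count moved by over 1.5 times.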
